A study of Mus musculus with 48 samples.

Results

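The melanocyte lineage genes described here are Mitf, Sox10, Tyr, Tyrp1, Dct, Pmel, Mlana, Slc45a2, Trpm1 and Gpnmb. They were chosen by name, and all 10 were found among the 34932 genes of the annotation. Their RNA was followed through 48 libraries of sorted mouse immune cells. T cells and other leukocytes were sorted from subcutaneous B16F10 tumors, which grow from a pigmented mouse melanoma line, and from the tumor-draining inguinal lymph nodes (TDLNs) of the same kind of host. Cells sorted from the tumors are called tumor-infiltrating leukocytes (TILs). The hosts were C57BL/6J mice aged 6 to 10 weeks. Yap-cKO mice carried loxP-flanked Yap alleles, a Cre-dependent EYFP reporter and a Cre transgene under the Cd4 promoter, so that deletion reaches CD4+ T cells and also CD8+ T cells, which pass through a CD4-positive stage. WT littermates were the controls, and the tumor cells themselves were not edited. The 3 sorted populations were T cells with CD4, T cells with CD8, and leukocytes with CD45 but neither of those markers, written CD45+ below. With 2 tissues and 2 genotypes this gave 12 groups of 4 libraries. The labels do not say that the 4 libraries of a group came from separate animals, so p-values measure only the spread between these libraries, which may be partly technical.

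Melanocytes make melanin inside melanosomes. The transcription factor Sox10 helps to switch on Mitf, the lineage's master regulator, and Mitf in turn drives the pigment genes. Tyr, Tyrp1 and Dct are the enzymes of the melanin pathway, Pmel forms the fibrils on which pigment is laid down, Mlana is a small melanosome membrane protein, Slc45a2 is a melanosome transporter, and Trpm1 is a cation channel. Gpnmb is a melanosome glycoprotein that macrophages also make, and Mitf is likewise expressed outside the lineage, in macrophages, mast cells and osteoclasts, largely from other promoters. T cells are not known to use the pigment programme.

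The gene models place Tyr on chromosome 7 (minus strand), Tyrp1 on chromosome 4 (plus), Dct on chromosome 14 (minus), Pmel on chromosome 10 (plus), Mlana on chromosome 19 (plus), Sox10 on chromosome 15 (minus), Slc45a2 on chromosome 15 (plus), Trpm1 on chromosome 7 (plus), and both Gpnmb and Mitf on chromosome 6 (plus). RefSeq start-site windows (GRCm38.p6, mm10 coordinates) were at hand for 6 of the 10 genes, in 9 windows. The letters TCATGTG, known as the M-box that Mitf binds, were searched on both strands of the 250 bases before each start and lay in the windows of Tyr, Tyrp1, Dct and the upstream start of Trpm1. They lay in 3.25% of 32851 windows of the same length. The upstream start of Trpm1 held a mean of only 0.04% of Trpm1 counts in WT CD4+ TILs and 0.38% in WT CD8+ TILs. No M-box lay in the window of its downstream start. The windows of the melanin enzymes are shown because they hold this motif before genes whose levels carry the comparisons that follow. Each gives the 160 bases before the start, on the gene's strand, 5′ to 3′, with the M-box in capitals. They lie at chr7:87493513-87493672 for Tyr, chr4:80834053-80834212 for Tyrp1 and chr14:118052247-118052406 for Dct.
Tyr: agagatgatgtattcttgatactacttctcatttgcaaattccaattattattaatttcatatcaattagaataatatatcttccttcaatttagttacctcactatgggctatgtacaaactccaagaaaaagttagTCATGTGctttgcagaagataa
Tyrp1: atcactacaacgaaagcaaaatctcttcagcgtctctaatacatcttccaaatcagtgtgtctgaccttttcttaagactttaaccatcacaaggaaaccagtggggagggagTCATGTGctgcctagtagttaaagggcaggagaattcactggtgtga
Dct: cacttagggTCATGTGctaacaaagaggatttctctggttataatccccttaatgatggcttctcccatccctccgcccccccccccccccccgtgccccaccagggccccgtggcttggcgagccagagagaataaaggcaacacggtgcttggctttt
The M-box began 22 bases before the Tyr start, 47 before the Tyrp1 start and 151 before the Dct start. Dct held another on the opposite strand at 232 bases, outside the stretch printed. A match of letters is a description of the window and does not show that Mitf was bound there.

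Depth was 12656510 to 24213892 counts on genes per library, so that 3 counts, the floor used for a gene at 0, stood for 0.124 to 0.237 CPM (counts scaled to library size). Cd4 and Cd8a followed the sort in the 12 groups. Yap1, the targeted gene, had 16.8 to 30.2 CPM in WT CD4+ TILs against 1.80 to 5.25 in Yap-cKO CD4+ TILs, and 15.6 to 33.0 CPM in WT CD8+ TILs against 2.59 to 7.44 in Yap-cKO CD8+ TILs. The log2 fold changes were -2.58 (edgeR adjusted p = 0.00974) and -2.21 (adjusted p = 0.0180), and in CD45+ TILs -1.20 (adjusted p = 0.0773). In the TDLNs Yap1 overlapped between genotypes, with 1.19 to 2.26 CPM in WT libraries and 1.29 to 2.66 CPM in the Yap-cKO CD4+ cells. Its log2 difference in the nodes was 0.23 in CD4+ cells (adjusted p = 0.970) and -0.01 in CD8+ cells (adjusted p = 0.999). Yap1 was thus low in both genotypes outside the tumor, and in the nodes it did not separate them. The Y-linked genes Ddx3y and Eif2s3y both exceeded 5 CPM in all 18 libraries of WT replicates 1 to 3. In none of the other 30 did both exceed it, so genotype largely coincided with sex. WT replicate 4, which matched the Yap-cKO libraries in this respect, is therefore given separately where it matters.

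In tumors the 10 genes were abundant in every WT T-cell library, and in TDLNs they were low in both genotypes. Their summed level in WT CD4+ TILs was 23362, 17728, 7740.1 and 12075 CPM in replicates 1 to 4, which is 0.774 to 2.34% of all counts in these libraries. In Yap-cKO CD4+ TILs it was 272, 1264, 2803 and 1282 CPM. No Yap-cKO library reached the lowest WT library, and Yap-cKO replicate 3 came nearest to it. In WT CD8+ TILs the sum was 19440, 15485, 5494 and 15530 CPM, and in Yap-cKO CD8+ TILs it was 93.7, 801, 3594 and 1756 CPM. Again the genotypes did not overlap, and again WT replicate 3 and Yap-cKO replicate 3 were the closest pair. The CD45+ TILs held much less, at 1865, 1617, 1101 and 1868 CPM in WT hosts beside 246, 418, 664 and 731 CPM in Yap-cKO hosts. WT T-cell libraries thus held more of these transcripts than those of the other leukocytes from WT tumors. Replicate 3 had the lowest sum of the WT libraries in all 3 tumor populations, and replicate 1 the lowest of the Yap-cKO libraries. Means were 15226 ± 6793 CPM (SD, n = 4) against 1405 ± 1045 in CD4+ TILs, 13987 ± 5958 against 1561 ± 1517 in CD8+ TILs, and 1613 ± 361 against 515 ± 224 in CD45+ TILs. The WT mean was 10.8, 8.96 and 3.13 times the Yap-cKO mean. In WT replicate 4 alone the sum was 4.31, 4.32 and 2.56 times that of the highest Yap-cKO library. The 24 TDLN libraries held 6.1 to 30.4 CPM in all.

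**Figure D1:**
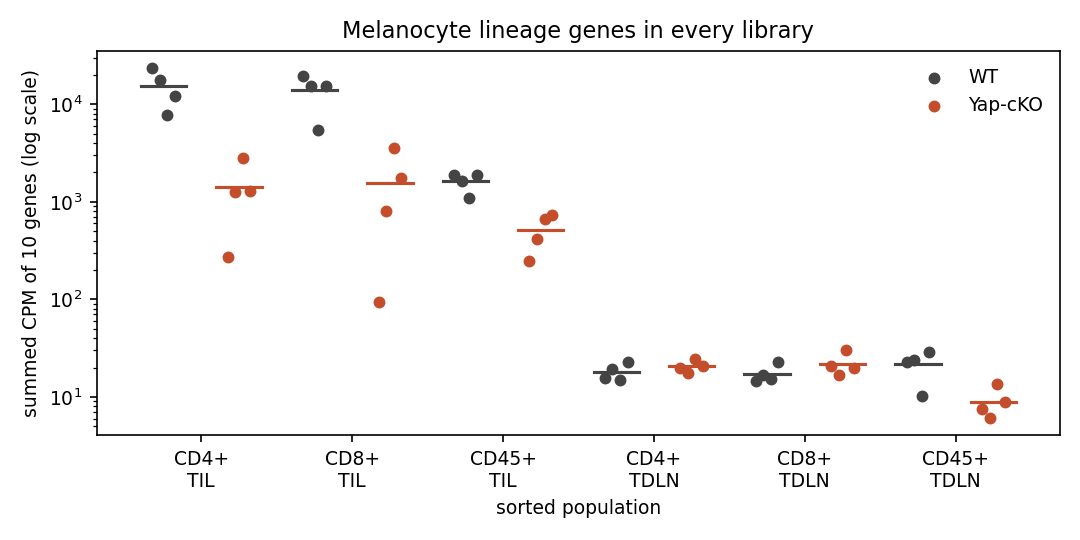
Summed level of the 10 melanocyte lineage genes in each of the 48 libraries, in CPM on a log axis, by sorted population, tissue and genotype; each point is 1 library and each bar the group mean. WT T-cell TILs sit at 5494 to 23362 CPM, Yap-cKO T-cell TILs at 93.7 to 3594 CPM, and TDLN libraries of both genotypes at or below 30.4 CPM.

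Compared per transcript length, as TPM (counts scaled to transcript length and library size), the pigment enzymes and melanosome proteins led in WT CD4+ TILs and the transcription factors came last. Dct had 2503 ± 1028 TPM (SD, n = 4), Pmel 2036 ± 929, Tyrp1 2020 ± 921 and Mlana 1447 ± 556. Gpnmb followed at 809 ± 323 TPM, Slc45a2 at 345 ± 142, Trpm1 at 149 ± 61.0 and Tyr at 120 ± 53.6. The factors Sox10 and Mitf were lowest, at 60.6 ± 27.3 and 39.4 ± 22.4 TPM. Within a library the order was steadier than these SDs, which carry the differences in total: Dct made up 26.3 ± 0.4% of the summed TPM of the 10 genes and Pmel 21.1 ± 2.6%. Each gene overlapped with its neighbour in this order within 1 SD. WT CD8+ TILs had nearly the same levels, with Dct at 2295 ± 940 TPM and Tyr at 122 ± 51.4 TPM.

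In CD4+ TILs the level of all 10 genes was lower in Yap-cKO mice than in controls, and 7 passed the test. Calls required an adjusted p (edgeR's quasi-likelihood test, Benjamini-Hochberg over all 14205 genes tested) under 0.05 and a log2 fold change beyond 1 in size, and 6.66% of all genes were called lower. Mitf, the master regulator, had 153, 75.0, 45.8 and 76.5 CPM in WT libraries and 4.59, 9.36, 10.7 and 6.16 CPM in the Yap-cKO libraries. Its log2 fold change was -3.30 ± 0.48 (SE; adjusted p = 0.00656). Even the lowest WT library, replicate 3, lay well above the highest Yap-cKO library. Among the melanin enzymes, Tyr had 519, 395, 160 and 310 CPM in WT against 8.38, 33.7, 37.0 and 40 CPM (log2 fold change -3.35 ± 0.55, adjusted p = 0.00785). Tyrp1 ranged over 1763 to 6127 CPM in WT libraries and 39.8 to 411 CPM in the Yap-cKO libraries (-3.72 ± 0.67, adjusted p = 0.0112). Dct ranged over 1932 to 5722 CPM and 59.0 to 650 CPM (-3.23 ± 0.70, adjusted p = 0.0194). All 3 enzymes fell together, and Yap-cKO replicate 1 had the lowest value of each. Slc45a2, the transporter, had 1221, 1005, 429 and 626 CPM in WT libraries and 9.43, 66.1, 140 and 62.4 CPM in the Yap-cKO (log2 fold change -3.30, adjusted p = 0.0212). Trpm1, the channel, ranged over 141 to 352 CPM and 7.51 to 48.7 CPM (-3.13, adjusted p = 0.0155). Gpnmb ranged over 1175 to 3418 CPM and 78.1 to 547 CPM (-2.89, adjusted p = 0.0225). None of these ranges overlapped between genotypes. Pmel, Mlana and Sox10 missed the threshold, with adjusted p of 0.0552, 0.0659 and 0.0721 and log2 fold changes of -2.91, -2.73 and -2.80. Pmel had 4930, 4362, 1676 and 2219 CPM in WT libraries and 56.5, 197, 926 and 220 CPM in the Yap-cKO libraries, so that replicate 3 stood far above the other Yap-cKO libraries. Sox10, the upstream factor, had 96.0, 207, 88.1 and 115 CPM in WT beside 2.05, 9.10, 41.1 and 4.93 CPM, and Mlana had 332 to 839 CPM beside 6.70, 41.7, 165 and 48.7 CPM. Both were again highest among the Yap-cKO libraries in replicate 3. Without that library all 10 genes were called. The median log2 fold change of the 10 genes was -3.18 beside 0.14 over all genes. Every Yap-cKO library lay under every WT library for 10 of 10 genes and for 15.3% of all genes tested. In WT replicate 4 all 10 genes were higher than in each Yap-cKO library. Leaving out WT replicate 2 or Yap-cKO replicate 2 lowered the number called to 4, and leaving out Yap-cKO replicate 4 lowered it to 3. With Y-linked expression as a covariate edgeR called none of the 10 and 2 genes over the whole table, where 1252 had an unadjusted p under 0.05. The squared correlation of this covariate with genotype was 0.558, and only WT replicate 4 separates sex from genotype. Such a fit therefore cannot tell the effects of sex and genotype apart.

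In CD8+ TILs the differences were of like size and more variable. Of the 10 genes, 5 were called lower in Yap-cKO mice (9.14% of 14121 genes): Mitf (log2 fold change -2.90, adjusted p = 0.0204), Gpnmb (-2.79, adjusted p = 0.0307), Trpm1 (-2.54, adjusted p = 0.0317), Dct (-3.25, adjusted p = 0.0374) and Slc45a2 (-3.24, adjusted p = 0.0479). The other 5 had adjusted p between 0.0502 and 0.0685. Dct had 4951, 3808, 1537 and 3545 CPM in WT libraries and 22.1, 156, 881 and 381 CPM in the Yap-cKO libraries. Tyrp1 had 5229, 3987, 1486 and 4209 CPM in WT libraries and 4.93, 223, 884 and 493 CPM in the Yap-cKO libraries. Mitf had 148, 130, 42.6 and 68.0 CPM in WT libraries, against 2.66, 11.2, 25.9 and 11.3 CPM in Yap-cKO hosts. The Yap-cKO libraries thus spread widely among themselves, with replicate 1 nearly free of Tyrp1 and replicate 3 near the lowest WT library. All 10 genes were without overlap (14.2% of all genes), all 10 were higher in WT replicate 4 than in each Yap-cKO library, and their median was -3.06 beside 0.08 over all genes. Leaving out single libraries moved the number called from 0 (without WT replicate 1, Yap-cKO replicate 2 or Yap-cKO replicate 4) through 1 (without WT replicate 2 or 4), 8 (without WT replicate 3) and 9 (without Yap-cKO replicate 1) to 10 (without Yap-cKO replicate 3). With Y-linked expression as a covariate edgeR called none of the 10 and 1 gene over the whole table, where 3390 had an unadjusted p under 0.05. The squared correlation of this covariate with genotype was 0.535, so the limit given for CD4+ TILs holds here too.

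In CD45+ TILs the pigment genes were lower in Yap-cKO mice as well, with a median log2 fold change of -2.22 over the 10 genes beside 0.01 over all genes, and Gpnmb and Mitf were not called. The test called 6 of 10 genes lower, against 0.925% of 13628 genes. Pmel had 332, 369, 208 and 352 CPM in WT libraries and 25.9, 54.0, 73.8 and 101 CPM in the Yap-cKO libraries (log2 fold change -2.27, adjusted p = 0.0242). Dct, with 303 to 567 CPM in WT libraries and 27.1 to 126 CPM in Yap-cKO libraries, fell by 2.45 (adjusted p = 0.0288), Tyr by 2.16 (adjusted p = 0.0308), Slc45a2 by 2.31 (adjusted p = 0.0283), Mlana by 2.51 (adjusted p = 0.0357) and Trpm1 by 2.28 (adjusted p = 0.0185). Tyrp1 (-1.99, adjusted p = 0.0654) and Sox10 (-1.90, adjusted p = 0.0536) missed the threshold. Gpnmb, in contrast, had 320, 278, 213 and 340 CPM in WT libraries and 149, 195, 272 and 314 CPM in the Yap-cKO libraries, a log2 difference of -0.27 ± 0.22 (adjusted p = 0.544). Mitf had 26, 17.7, 23.4 and 21 CPM against 7.61, 16, 21.6 and 12.6 CPM (-0.59 ± 0.27, adjusted p = 0.284). These were the only 2 of the 10 genes whose genotypes overlapped, the other 8 being fully apart (9.88% of all genes). In WT replicate 4, 9 of the 10 genes were higher than in each Yap-cKO library. Of the 10 genes, the number called fell to 0 without WT replicate 2, WT replicate 4 or Yap-cKO replicate 2, to 1 without WT replicate 1 and to 2 without Yap-cKO replicate 3. It was 0 with the Y-linked covariate, where edgeR called 1 gene over the whole table and 858 had an unadjusted p under 0.05. That covariate had a squared correlation of 0.565 with genotype, so the same limit holds.

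**Figure D2:**
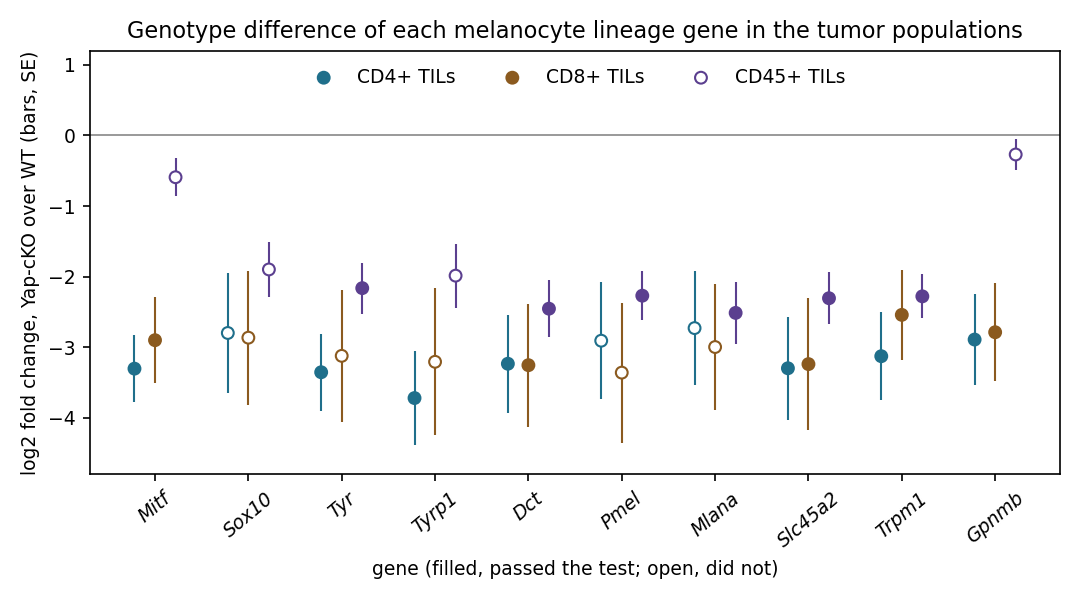
Log2 fold change, Yap-cKO against WT, of each of the 10 genes in CD4+, CD8+ and CD45+ TILs, with its standard error from edgeR; filled points passed the test. All 30 values lie below 0, and Gpnmb (-0.27) and Mitf (-0.59) in CD45+ TILs lie nearest to it.

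To compare populations of different total level, each gene's TPM was divided by that of Pmel in the same library. The ratio of Slc45a2 was 0.132 to 0.159 in all 8 CD45+ TIL libraries and 0.103 to 0.249 in the 16 T-cell TIL libraries. That of Gpnmb was 0.348 to 0.486 in the 8 WT T-cell TIL libraries and 0.440 to 0.613 in WT CD45+ TILs, but 1.89 to 3.6 in Yap-cKO CD45+ TILs. Those last 2 groups did not overlap. Gpnmb made up 8.51 ± 0.35% of the summed TPM of the 10 genes in WT CD4+ TILs (SD, n = 4) and 35.2 ± 8.9% in Yap-cKO CD45+ TILs. Mitf moved likewise, from 0.031 to 0.066 of Pmel in WT CD45+ TILs to 0.092 to 0.194 in Yap-cKO CD45+ TILs. In Yap-cKO CD8+ TILs replicate 1, the library with the smallest sum, Gpnmb was also high against Pmel, at 2.90. Macrophage markers were abundant in the CD45+ TILs, all 12 of the list being above 3 counts, with a summed 20327 to 26877 CPM in WT libraries and 13590 to 22889 CPM in the Yap-cKO libraries. In CD8+ TILs these markers summed to 377 to 785 CPM in WT libraries and, without overlap, to 834 to 2396 CPM in the Yap-cKO libraries, whereas in CD4+ TILs the ranges of 339 to 837 and 126 to 605 CPM overlapped. The part of macrophage RNA in the Gpnmb and Mitf values was not tested. Trpm1 was at 0.0956 to 0.604 of Pmel in Yap-cKO CD8+ TILs and at 0.0776 to 0.0937 in WT CD8+ TILs, again without overlap. In those Yap-cKO libraries Trpm1 went down to 5.25 CPM and Pmel to 9.17 CPM, while CD8+ TDLNs held 5.91 to 13.1 CPM of Trpm1. The part of such Trpm1 RNA in the ratios was not tested. Over the 16 T-cell TIL libraries the SD of the log2 ratio was 0.98 for Trpm1, 0.78 for Gpnmb and 0.33 for Slc45a2. Tyrp1 differed within one group as well, with 0.227 of Pmel in Yap-cKO CD4+ TILs replicate 3 beside 0.728 to 1.48 in the WT T-cell TILs.

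**Figure D3:**
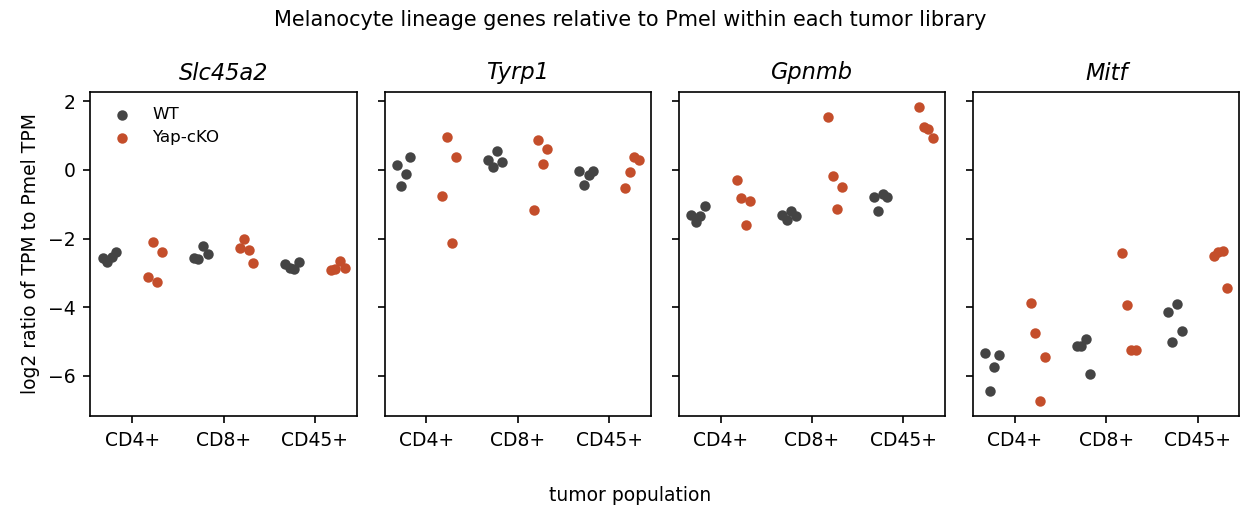
Log2 ratio of the TPM of Slc45a2, Tyrp1, Gpnmb and Mitf to that of Pmel in the same library, in the 24 tumor libraries by population and genotype; each point is 1 library. As linear ratios, Slc45a2 lies between 0.103 and 0.249 in these libraries, while Gpnmb reaches 1.89 to 3.6 in Yap-cKO CD45+ TILs.

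Mitf is transcribed from several starts, of which the most downstream, at position 97991792 of chromosome 6, gives the melanocyte form M-Mitf and the most upstream, at 97807052, a widely used form. The windows before the matching RefSeq starts are shown so that these promoters can be told apart. The 160 bases of the melanocyte start lie at chr6:97991623-97991782 and those of the upstream start at chr6:97806898-97807057 (GRCm38.p6, plus strand). Capitals mark TGACGTCA, the cAMP response element.
Mitf melanocyte start: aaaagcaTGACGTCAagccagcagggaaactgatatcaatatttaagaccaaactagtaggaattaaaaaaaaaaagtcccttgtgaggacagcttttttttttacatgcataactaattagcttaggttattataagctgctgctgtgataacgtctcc
Mitf upstream start: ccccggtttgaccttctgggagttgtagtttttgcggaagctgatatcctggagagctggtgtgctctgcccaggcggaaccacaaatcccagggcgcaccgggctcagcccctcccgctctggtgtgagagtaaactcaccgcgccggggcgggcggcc
The cAMP response element began 153 bases before the melanocyte start and was not found in the 250 bases before the other 2 Mitf starts searched. It was present in 1.55% of all windows.

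The share of Mitf counts assigned to transcripts from the melanocyte start was 49.5, 33.7, 38.4 and 34.8% in WT CD4+ TILs and 39.5, 39.3, 55.7 and 47.2% in Yap-cKO CD4+ TILs. The genotypes overlapped (exact two-sided permutation test, p = 0.257, n = 4 and 4), and in both the melanocyte start was in use. In WT CD8+ TILs the share was 37.4 to 46.0%. In Yap-cKO CD8+ TILs it was 5.12, 20.8, 39.0 and 33.5%, lowest in the library with the least of all 10 genes (exact permutation p = 0.0571, n = 4 and 4). In CD45+ TILs it was lower, at 24.7, 26.2, 6.73 and 10.7% in WT and 0, 3.03, 5.10 and 12.1% in Yap-cKO libraries (exact permutation p = 0.0857, n = 4 and 4). Adjusted over these 3 tests (Benjamini-Hochberg, exact permutation) the p-values were 0.257, 0.129 and 0.129, and the smallest unadjusted p this design allows is 0.0286. Counts from the upstream start overlapped between genotypes in CD45+ TILs, at 309 to 407 in WT and 166 to 449 in Yap-cKO libraries. Most Mitf RNA of the CD45+ cells therefore came from transcripts other than the melanocyte form. The upstream start also held the larger mean share in T-cell TILs. For CD4+ TILs this share was 60.8% (WT) and 54.6% (Yap-cKO), and for CD8+ TILs 58.1% and 75.4%. Unlike in CD45+ TILs, counts from this start did not overlap between genotypes there. CD4+ TILs ran from 476 to 1193 (WT) against 44.8 to 88.6 (Yap-cKO). CD8+ TILs ran from 388 to 1420 against 39.9 to 272. No count fell on melanocyte-start transcripts in any CD4+ or CD45+ TDLN library, and at most 2 counts in a CD8+ TDLN library. The split between transcripts is an estimate of the quantifier from shared reads.

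**Figure D4:**
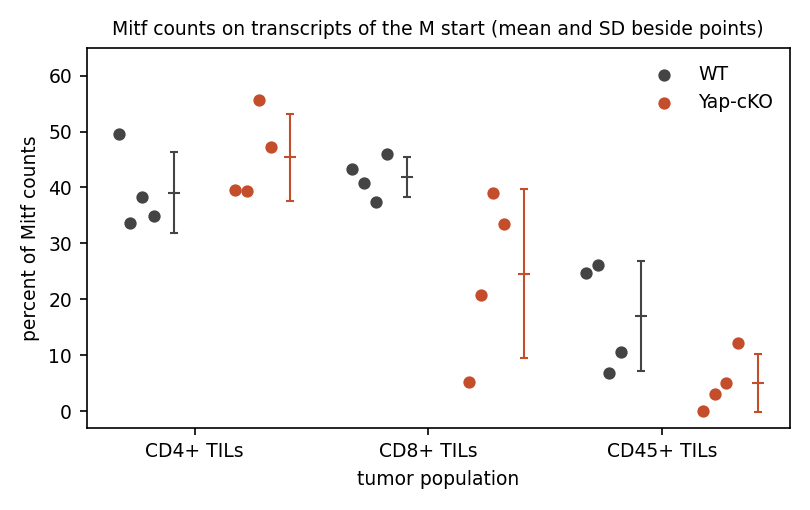
Percent of Mitf counts assigned to transcripts from the melanocyte start, in the 24 tumor libraries by population and genotype; each point is 1 library, with the group mean and SD beside it. CD4+ TILs of both genotypes lie at 33.7 to 55.7%, and CD45+ TILs at 0 to 26.2%.

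Setting TILs against TDLNs asked how much of this RNA was particular to the tumor site. All 10 genes were called higher in WT CD4+, WT CD8+ and WT CD45+ TILs and in Yap-cKO CD4+ and CD45+ TILs, where 22.9, 22.5, 21.9, 12.4 and 21.8% of all genes were called higher. In Yap-cKO CD8+ cells 8 of 9 tested genes were called (10.9% of all genes), Trpm1 was not (log2 fold change 1.67, adjusted p = 0.0586), and Sox10 was too low to test. Sox10, Slc45a2, Tyrp1 and Mlana had at most 6 counts in any CD4+ or CD8+ TDLN library, and Tyr at most 9 in CD4+ ones. Genes this low passed the filter of 10 counts in 4 libraries only through their TIL libraries. The direction of their calls was therefore fixed in advance, and for these genes the levels alone are informative. Several node groups had no count at all of a gene, which gives only a lower bound against a floor of 3 counts per library. Slc45a2 was at least 5006-fold higher in WT CD4+ TILs, at least 4277-fold in WT CD8+ TILs and at least 422-fold in Yap-cKO CD4+ TILs. Sox10 was at least 772-fold higher in WT CD4+ TILs and at least 86.6-fold in Yap-cKO CD4+ TILs. The contrast between tumor and node was thus large in both genotypes.

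In the nodes Dct-204, a retained-intron transcript that begins inside the gene, took 100% of Dct counts in every CD4+ TDLN library and 93.3 to 100% in CD8+ TDLNs, whereas transcripts with the first exon made up 97.6% of Dct counts in WT CD4+ TILs. Trpm1 was at 1.84 to 4.27 CPM in CD4+ TDLNs and, without overlap, at 5.91 to 13.1 CPM in CD8+ TDLNs, where its downstream start, which also took 98.8 ± 0.4% of Trpm1 counts in WT CD4+ TILs (SD, n = 4), gave 92 to 159 counts in WT and 110 to 220 counts in Yap-cKO libraries. Between genotypes, none of the 5 genes that could be tested was called in CD4+ TDLNs (lower: 0.0154% of all genes) or CD8+ TDLNs (0.0079%) by edgeR or DESeq2. None of them was without overlap between genotypes in the direction of the tumors (0.916 and 0.403% of all genes). At an unadjusted p under 0.05 edgeR had 0 of these genes in either population, and 228 and 120 genes over the whole tables.

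The CD45+ cells of the TDLNs held traces of several pigment genes, with fewer counts in every Yap-cKO than in any WT library for 4 of them. Gpnmb had 36 to 56 counts in WT and 6 to 9 in Yap-cKO libraries, and was the 1 of 7 tested genes called lower (log2 fold change -2.65 ± 0.35, edgeR adjusted p = 0.0352; 0.0447% of all genes). Macrophage markers summed to 220 to 3584 CPM in WT and 161 to 383 CPM in Yap-cKO CD45+ TDLN libraries, and their part in this difference was not tested. The call of Gpnmb was lost in 7 of 8 fits that left out a library, controls included. Tyrp1 had 81, 97, 31 and 92 counts in WT and 1, 2, 21 and 12 counts in Yap-cKO libraries. Tyrp1 and Gpnmb were the 2 of 7 tested genes whose genotypes did not overlap (0.811% of all genes). Slc45a2, too low to test over all genes, had 21, 17, 9 and 19 counts against 0, 0, 4 and 1. Mlana had 6 to 13 counts against 0 to 2. For each of these 4 genes the genotypes did not overlap, and the exact two-sided permutation p was 0.0286, the smallest that 4 against 4 libraries can give (0.0786 after Benjamini-Hochberg adjustment over 11 such tests). Dct transcripts with the first exon had 19 to 91.6 counts in WT and 0 to 16 in Yap-cKO libraries (exact permutation p = 0.0571). Tyr, at 10 to 20 and 12 to 21 counts, did not differ in this way (exact permutation p = 0.943). The highest Yap-cKO values were those of replicate 3 for both Tyrp1 and Slc45a2. These tests were chosen after the counts had been seen.

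Within WT tumors the CD45+ cells held less of every gene than the T cells did. All 10 genes were called lower in CD45+ than in CD4+ TILs (17.6% of all genes) and than in CD8+ TILs (16.5%). Against CD4+ TILs the log2 differences ran from -1.48 for Mitf to -3.12 for Slc45a2, with a median of -2.59. In Yap-cKO tumors fewer genes were called, with median log2 differences of -1.57 against CD4+ and -1.74 against CD8+ TILs. At an unadjusted p under 0.05 edgeR had 7 and 2 of the 10 genes, beside 5829 and 7293 over the whole tables. Slc45a2 was lower in CD45+ than in CD4+ TILs (-2.08, adjusted p = 0.0449; 13.9% of all genes lower), Mitf was higher (1.27, adjusted p = 0.0323; 15.8% higher), and the other 8 were not called. Against Yap-cKO CD8+ TILs Trpm1 alone was called lower (-2.04, adjusted p = 0.0199; 14.5%). Neither Yap-cKO count went beyond the shares of all genes called. Either count ranged over 0 to 7 genes as single libraries were left out.

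Whether the genotype difference itself varied was tested with interaction terms in edgeR. Between CD8+ and CD4+ TILs none of the 10 genes was called by edgeR (0% of all genes) or DESeq2, and none had an unadjusted p under 0.05, beside 525 genes over the whole table. Between CD45+ and CD4+ TILs Mitf differed by 2.73 ± 0.55 (adjusted p = 0.0163; 1.51% of all genes higher), its fall being smaller in CD45+ cells. Gpnmb differed by 2.62 (adjusted p = 0.0775) and, between CD45+ and CD8+ TILs, by 2.52 (adjusted p = 0.0884; 1.5%). With the replicate number as a block both genes were called in both comparisons, Mitf at 2.68 (adjusted p = 0.0134) and Gpnmb at 3.01 (adjusted p = 0.0272) against CD4+ TILs, and at 2.44 (adjusted p = 0.0431) and 2.82 (adjusted p = 0.0415) against CD8+ TILs. The block assumes that same-numbered libraries belong together. Same-numbered Yap-cKO CD45+ libraries correlated at only -0.232 to 0.367 with CD4+ and -0.0173 to 0.476 with CD8+ TILs, so these blocked calls are uncertain. Between tumor and node, the genotype difference of CD4+ cells was larger in the tumor for Tyr (-3.77), Dct (-3.26), Gpnmb (-3.01), Trpm1 (-3.06) and Mitf (-3.86). These were 5 of the 10 genes, against 1.15% of all genes. Tyr, with 3 to 9 counts in CD4+ TDLN libraries, passed the filter only through its TIL libraries. Its value therefore restates its tumor difference and says nothing about the node. The same limit holds for Tyrp1, Mlana, Sox10 and Slc45a2, which were tested and not called. In CD8+ cells none was called by edgeR (0.422%), although DESeq2 called 4, and 7 had an unadjusted p under 0.05 (2333 over the whole table). In CD45+ cells none was called by edgeR (0%), 2 were by DESeq2, and 4 had an unadjusted p under 0.05 (1246 over the whole table).

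A further 24 genes of melanocytes and melanoma, among them regulators, melanosome proteins and surface receptors, were taken as a list. In CD4+ TILs 14 of the 23 tested were called lower and none higher (6.66% of all genes lower), all 23 lay below 0, and their median log2 fold change was -2.61. In CD8+ TILs 13 were called lower (9.14% of all genes), 22 of 23 lay below 0 with the highest at 0.66, and the median was -3.03. In CD45+ TILs 7 were called lower (0.925% of all genes), 19 of 23 lay below 0 with the highest at 1.07, and the median was -1.59. Pax3, a neural crest factor that acts with Sox10 on Mitf, fell by 3.39, 3.05 and 2.15 in the 3 populations. Slc24a5, an ion exchanger needed for normal pigmentation, fell by 3.48, 3.34 and 2.39. Oca2, a melanosome channel, fell by 2.93 and 3.23 in CD4+ and CD8+ TILs, Rab38, a GTPase of melanosome traffic, by 3.18 and 3.03, and Fabp7, a fatty acid carrier of neural crest cells, by 3.2 and 3.11. Mcam, an adhesion molecule of melanoma and of blood vessels, fell by 3.43 and 4.82. In CD45+ TILs Rab38 fell by 1.93, while Oca2, Fabp7 and Mcam missed the threshold at -2.20, -1.59 and -1.82. Met, a receptor tyrosine kinase also found on other cells, fell by 3.15 in CD4+ TILs (adjusted p = 0.0132), with values of -3.01 in CD8+ (adjusted p = 0.0528) and -0.39 in CD45+ TILs (adjusted p = 0.295). Rab32, a small GTPase of melanosome transport that leukocytes also use, fell by 1.47 in CD4+ TILs (adjusted p = 0.0181) and stood at -0.58 and -0.01 in the others. Between CD45+ and CD4+ TILs the difference itself was tested for both, at 2.79 for Met (adjusted p = 0.0313) and 1.49 for Rab32 (adjusted p = 0.0205). In the TDLNs none of the 8, 8 and 13 genes tested was called by edgeR, and 0, 0 and 1 of them had an unadjusted p under 0.05.

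The genes whose log2 CPM followed the mean of the 10 most closely over the 24 tumor libraries, of 15839 genes, were Car14 (Pearson r = 0.996), Fbln5 (0.995), Slc24a5 (0.994), Fkbp9 (0.994), Gsta1 (0.993), Rab38 (0.989), Scrn1 (0.989), Syt9 (0.988), Me1 (0.987) and Tm4sf1 (0.986). They include a carbonic anhydrase, a matrix protein, a melanosome exchanger and a melanosome GTPase. Car14 averaged 247 CPM in CD4+ TILs of WT hosts against 21 CPM in those of Yap-cKO hosts, and at most 0.2 CPM in any TDLN group. Among the 10 genes themselves, Slc45a2 was closest to the mean of the others (r = 0.994) and Mitf farthest (r = 0.878), with Gpnmb at 0.944. The points share libraries, populations and genotypes, so these values describe likeness and carry no p.

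Other RNA also differed between the genotypes in the tumor libraries. The 15 T-lineage markers summed to 2360 to 9118 CPM in WT CD4+ TILs and 9283 to 12374 CPM in Yap-cKO CD4+ TILs, and to 2909 to 8339 CPM and 9409 to 9711 CPM in CD8+ TILs. Pan-leukocyte genes were at 4377 to 12790 CPM in WT libraries and 17065 to 18707 CPM in the Yap-cKO CD4+ TILs. The WT T-cell libraries, which held the most pigment transcripts, thus held less of the sorted cells' own marker RNA, while in CD45+ TILs the pan-leukocyte ranges overlapped (12527 to 14693 and 13774 to 14530 CPM). In bulk samples fewer cells of a type and less RNA per cell cannot be told apart. Fibroblast markers were at 110 to 537 CPM in WT libraries and 9.4 to 46.0 CPM in the Yap-cKO CD4+ TILs, and endothelial markers at 218 to 480 and 96.0 to 144 CPM. In CD8+ TILs fibroblast markers were at 30.5 to 773 CPM in WT and 6.1 to 12.7 CPM in Yap-cKO libraries. Endothelial markers there were at 137 to 2115 and 76.9 to 97.3 CPM. In CD45+ TILs both overlapped, at 15.9 to 28.3 and 7.4 to 36.5 CPM for fibroblast and 64.7 to 150 and 72.0 to 103 CPM for endothelial markers. Keratinocyte markers went the other way in CD4+ TILs, at 8.2 to 22.4 CPM in WT and 22.6 to 45.9 CPM in Yap-cKO libraries. Of these, Krt5, Krt14 and Trp63 were at or under 3 counts in every CD4+ TIL library, as was Krt1 in the WT ones. CD4+ TDLN libraries held 23.7 to 38.7 CPM of the same list, so this sum does not stand for keratinocyte RNA. Mast cell markers, from another cell type that uses Mitf, summed to 0.4 to 1.0 CPM in WT CD4+ TILs, with 7 of 8 genes at or under 3 counts in every library. They reached 9.2 to 17.4 CPM in WT and 4.4 to 59.9 CPM in Yap-cKO CD45+ TILs. In CD8+ TILs they were at 0.6 to 1.4 CPM in WT and 1.7 to 46.9 CPM in Yap-cKO libraries. The part of mast cell RNA in the Mitf values was not tested. Scaled to the pan-leukocyte genes instead of all counts, the WT to Yap-cKO ratio of the summed melanocyte genes was 28.6 in CD4+ and 22.5 in CD8+ TILs. The WT libraries then spread over 9625 to 84878 CPM (35036 ± 34325, SD, n = 4) and 6750.0 to 60416 CPM (33659 ± 22828), and without WT replicate 1, the highest of both, the ratios were 15.04 and 16.55, a step chosen after the values had been seen. This scaling shifted the median log2 fold change of all genes by -1.27 and -1.22.

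The level of these 10 genes also went with what the genotype comparison found over the whole table. Across the 16 T-cell TIL libraries, each gene's deviation from its group mean was set beside the mean deviation of the melanocyte genes. The median correlation was 0.0152 over all genes. It was 0.583 over the genes called lower in Yap-cKO CD4+ TILs, of which 58.6% exceeded 0.5 against 20.5% of all genes, and 0.586 over those called lower in CD8+ TILs. Genes called higher in Yap-cKO CD8+ TILs had a median of -0.576, and those called higher in CD4+ TILs one of -0.119. The further melanocyte list had a median of 0.808. Among the marker lists it was -0.116 for T-lineage, -0.236 for pan-leukocyte, 0.212 for fibroblast, 0.371 for endothelial and 0.366 for macrophage genes. Yap1 itself had 0.882, so within a group the libraries with more melanocyte RNA also had more Yap1. These are descriptions over libraries that also entered the calls, and carry no p.

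With the mean log2 level of the melanocyte genes as a covariate, the number of genes called between genotypes went from 1139 to 0 in CD4+ TILs, from 1719 to 1 in CD8+ TILs and from 135 to 0 in CD45+ TILs (edgeR). At an unadjusted p under 0.05, 2024, 579 and 1048 genes remained. The squared correlation of this covariate with genotype was 0.78 in CD4+, 0.634 in CD8+ and 0.803 in CD45+ TILs, so in 8 libraries the effect of genotype and the level of melanocyte RNA cannot be told apart. Leaving out Yap-cKO replicate 3, the Yap-cKO library richest in melanocyte RNA, raised the number called in CD4+ TILs to 3256, and leaving out Yap-cKO replicate 4 lowered it to 357. In CD8+ TILs it rose to 2707 without WT replicate 3, the WT library poorest in melanocyte RNA, and to 2152 without Yap-cKO replicate 3, and fell to 1 without Yap-cKO replicate 2. In CD45+ TILs it ranged from 3 without Yap-cKO replicate 2 to 118 without Yap-cKO replicate 4. The highest count of each population came when the library left out was the one of its genotype nearest to the other genotype in summed melanocyte RNA.

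**Figure D5:**
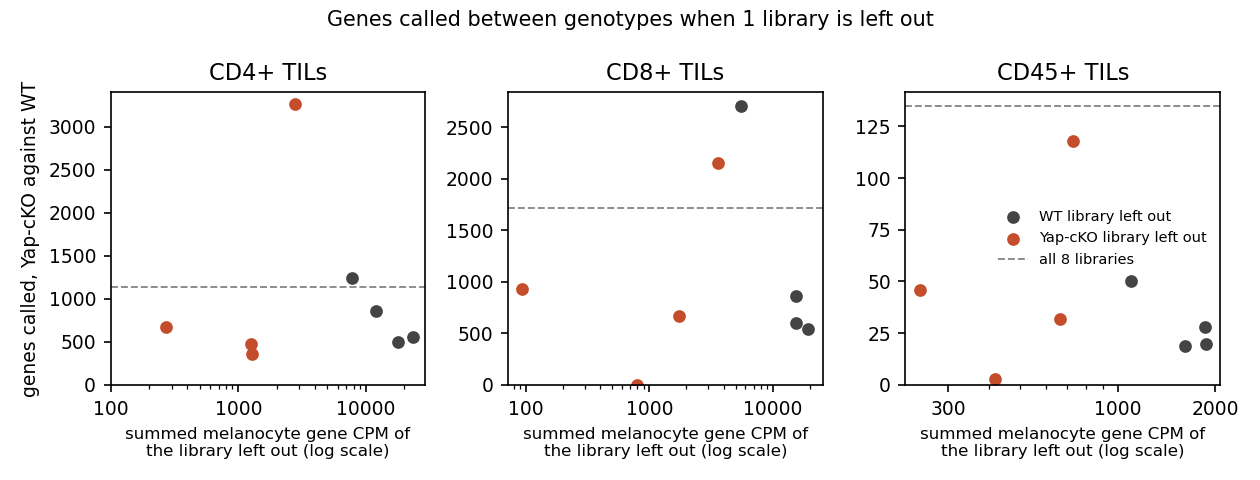
Number of genes called between Yap-cKO and WT TILs (edgeR) when each library is left out, against the summed level of the 10 melanocyte lineage genes in that library, in CPM on a log axis; the dashed line is the number with all 8 libraries. The highest counts are 3256 in CD4+ TILs without Yap-cKO replicate 3 (2803 CPM) and 2707 in CD8+ TILs without WT replicate 3 (5494 CPM).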

How the data were processed

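RNA of 48 sorted populations was sequenced by the authors (SMART-Seq v4 libraries, paired reads of 75 bases), and quantified with Salmon 0.9.1 after FastQC and Trimmomatic, on mm10, per the methods and the submitters' processing notes. The authors deposited, for each library, estimated counts, TPM and an effective length per transcript. Here 111787 of 112092 transcripts were matched to GENCODE M21 by name, and the deposited estimated counts were summed to 34932 genes and rounded for testing. Unmatched transcripts held 0.0488 to 0.18% of counts. Levels are CPM of all gene counts, or the deposited TPM summed per gene.

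Genes that reached 10 counts in 4 or more libraries of a comparison were tested with edgeR 4.0.16 (TMM factors, quasi-likelihood test, Benjamini-Hochberg adjustment) in R 4.3.3, using only the libraries of that comparison (8, or 16 for interactions). The fits were tested on simulated data. Calls required a log2 fold change beyond 1 in size with adjusted p below 0.05. Alternatives were DESeq2 1.42.0, no filter, total counts, pan-leukocyte and T-lineage scaling, transcript length offsets, adjusted p alone, a Y-linked or melanocyte-gene covariate, the replicate number as a block, and leaving out each library. Fits that left out a library kept the genes tested in the full comparison. The likeness to the 10 genes is the Pearson correlation of log2(CPM + 0.5) with TMM scaling. Transcripts with starts within 1000 bases were pooled as one start.

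Same-numbered libraries of different genotype or tissue did not all deviate together. Those of the WT tumor populations did (correlations of 0.123 to 0.744), as did Yap-cKO CD4+ with CD8+ TILs (0.162 to 0.65). The same number was the best match for 4 of 4 WT CD45+ TIL libraries with either T-cell population, so the numbers pair those. For CD4+ with CD8+ TILs it was the best match in only 2 of 4 WT and 3 of 4 Yap-cKO libraries, so that pairing is less certain. Yap-cKO CD45+ TILs did not all deviate with the T cells (lowest -0.232 and -0.0173). None of 72 pairs of replicates agreed within sampling noise. Intervals of counts cover counting error only. The genes, lists and tests were chosen with earlier results of these data known. Named from the further melanocyte list are the 8 genes with the smallest p in CD4+ TILs, and by likeness the 10 genes with the highest correlation.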

Additional observations from a re-analysis of the deposited data

Results flagged for a closer look

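Of 72 groups of 4 libraries checked for a value far from the others, 1 held one, and chance alone marks about 1 in 20 such groups. It was Sox10 in Yap-cKO CD8+ TILs, where replicate 3 had 43.4 CPM against 0.506, 6.14 and 5.15 CPM in the other libraries. The same library had the largest sum of all 10 genes in its group.

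The difference between Yap-cKO and WT CD4+ cells was larger in tumors than in TDLNs for 5 genes by a test of the interaction (edgeR, adjusted p under 0.05). On the log2 scale the difference of differences was -3.77 for Tyr, -3.26 for Dct, -3.01 for Gpnmb, -3.06 for Trpm1 and -3.86 for Mitf. In TDLNs the genes were low in both genotypes, and 1 to 6 genes were called as single libraries were left out. Tyr had only 3 to 9 counts in CD4+ TDLN libraries, so its value restates its difference in the tumor.

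The genotype difference of Mitf was smaller in CD45+ than in CD4+ TILs, by 2.73 on the log2 scale (edgeR, adjusted p = 0.0163). In WT and Yap-cKO CD45+ TILs the melanocyte start gave 17.1 ± 9.8% and 5.06 ± 5.14% of Mitf counts (SD, n = 4 and 4), and in CD4+ TILs 39.1 ± 7.2% and 45.4 ± 7.8%. The part of Mitf RNA from CD45+ cells in this difference was not tested.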

How the results depend on the processing

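Of the 63 fold changes of single genes followed under the alternatives, in the main those called or of tumor cells, 0 changed sign, and those of genes near 0 in the nodes were not followed. The counts of the 10 genes called moved as follows, the cause not being tested. In CD4+ TILs (7 called) the count was 0 with the Y-linked covariate, and without single libraries 3 to 10. In CD8+ TILs (5) it was 10 with DESeq2, without a filter, and with pan-leukocyte or T-lineage scaling, 0 with the Y-linked covariate, and 0 to 10 without single libraries. Pan-leukocyte scaling called 6806 of 14121 genes lower over that whole table, against 1291 in the main fit. In CD45+ TILs (6) the count of the 10 genes was 0 with the Y-linked covariate and 0 to 7 without single libraries. In CD45+ TDLNs (1) it was 0 without a filter, with total counts, pan-leukocyte scaling or transcript length offsets, and 0 to 1 without single libraries. In the comparison of Yap-cKO CD45+ with CD4+ TILs (2) it was 7 with DESeq2, 6 without a filter, 6 with total counts, and 0 to 7 without single libraries. Against Yap-cKO CD8+ TILs (1) it was 4 with total counts and 0 to 7 without single libraries. Over the whole tables of these comparisons, total counts called 3328 and 4005 genes lower, against 1930 and 2006 in the main fits. Yap-cKO CD8+ TILs against TDLNs (8) gave 8 to 9. For the interaction of tissue and genotype, leaving out libraries gave 1 to 6 in CD4+ cells (5 called), 0 to 4 in CD8+ cells (0) and 0 to 1 in CD45+ cells (0). In CD8+ cells that interaction gave 4 with DESeq2 or without a filter and 7 with pan-leukocyte or T-lineage scaling. Pan-leukocyte scaling there called 4540 of 14937 genes lower over the whole table, against 63 in the main fit. It also shifted the median of all genes by -1.24. In CD45+ cells the interaction gave 2 with DESeq2 and 1 without a filter. For CD45+ minus CD4+ TILs (1) the count was 2 with DESeq2, without a filter, with total counts or with length offsets, 5 with pan-leukocyte scaling, and 1 to 3 without single libraries. For CD45+ minus CD8+ TILs (0) it was 2 with DESeq2 or pan-leukocyte scaling and 0 to 2 without single libraries.

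Over the whole table, pan-leukocyte scaling called 5186 genes in CD4+ and 6816 in CD8+ TILs, and the melanocyte-gene covariate 0, 1 and 0 genes in the 3 populations. Without single libraries the counts were 357 to 3256, 1 to 2707 and 3 to 118. Scaled to pan-leukocyte genes, the summed level was 35036 ± 34325 CPM (SD, n = 4) in WT CD4+ and 33659 ± 22828 CPM in WT CD8+ TILs, with WT to Yap-cKO ratios of 15.04 and 16.55 without WT replicate 1, and the TMM scale gave WT to Yap-cKO ratios of 10.1, 9.11 and 3.02.

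When the model held the replicate block, the count was 8 in CD4+ TILs, 0 in CD8+ TILs, 0 in CD45+ TILs, and 0 in CD45+ TDLNs. In these comparisons the libraries share only a number, with correlations from -0.743 to 0.577 between genotypes. The block gave 5 for Yap-cKO CD45+ against CD4+ TILs and 2 for the interactions of CD45+ with CD4+ and with CD8+ TILs. There the numbers pair the WT libraries, while the Yap-cKO CD45+ libraries correlated at -0.232 to 0.367 with CD4+ and at -0.0173 to 0.476 with CD8+ TILs. Among WT tumor populations the block left 10 of 10 genes called. In CD4+ and CD8+ nodes 5 of the 10 genes were too low to test, so differences there were not detectable at this depth.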
